A study of Mus musculus with 6 samples.

Results

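Broad open domains are stretches of chromatin that the transposase of an ATAC-seq experiment cut at an elevated rate over at least 5 kb without a break. They were chosen by their signal. Chromosomes 1 to 19 were divided into 500 bp tiles, those averaging 5 or more times the signal of the median nonzero tile across all 6 libraries (0.302 against 0.0605 CPM, cut sites scaled to the depth of the library) were joined where they touched, and joined regions from 5 kb to under 50 kb wide were kept. This gave 2963 domains among 163659 open regions, or 1.81% of the regions, 11.6% of the open tiles and 0.928% of the length of these chromosomes (22.8 Mb). The values that selected the members were the mean signal and the width, so neither is a finding. Another 5 regions were too wide for the rule, at 50000 to 89500 bp. Just inside the lower limit lay 716 domains of exactly 5 kb, with a mean signal of 4.17 to 104 CPM (median 26.5), and just outside lay 1021 regions of 4.5 kb, with 3.75 to 142 CPM (median 23.0).

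The libraries are single-cell ATAC-seq of nuclei from sorted horizontal basal cells (HBCs), which lie on the basal lamina of the olfactory epithelium as a quiescent reserve, 3 from control mice and 3 from mice taken 24 h after injury with methimazole, a drug that strips most of the epithelium above these cells. Mice of both groups carried Krt5CreER, a tamoxifen-inducible Cre expressed from the keratin 5 promoter, and Rosa26 LSL-YFP/LSL-YFP, a reporter that stays on in a labelled cell and in all its descendants, so that the sort takes labelled cells whatever they have become. Ages matched within a replicate number (8 weeks for replicate 1, 6 weeks for replicate 2, 6 to 7 weeks for replicate 3). Living YFP-positive cells of the dorsal epithelium were sorted. Tissue of each animal was dissociated separately, per the labels, and whether 1 library holds 1 mouse or several is not given in the sources used here.

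An ATAC-seq cut site marks DNA that nucleosomes or other proteins leave free. Most open regions are a short stretch of a single promoter or enhancer. Wide stretches arise where many elements lie side by side, at promoters of strongly transcribed genes, along the bodies of such genes, or in clusters of enhancers, and in epithelia they are well known at keratin, cell adhesion and transcription factor genes. Primary response genes such as Fos, Egr1 and Nr4a1, which are induced within minutes of a stimulus without new protein synthesis, commonly carry such chromatin.

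The windows of 300 bp with the most cut sites, outside annotated exons, are shown for the 3 domains with the largest rise and the 3 with the largest fall after injury. Capitals mark matches on either strand to the AP-1 motif TGANTCA, the GC box GGGCGG, the interferon-factor motif GAAANNGAA or the STAT motif TTCNNNGAA, and all sequences are the plus strand of GRCm38. In all 163659 open regions the highest 500 bp tile held these motifs in 26.7%, 16.0%, 15.5% and 15.2% of regions, and in the domains in 21.4%, 58.7%, 10.53% and 11%. A match is a run of letters and not evidence of binding, and the last 2 motifs were added after the values had been seen.
Abtb2 intron, chr2:103656017-103656316: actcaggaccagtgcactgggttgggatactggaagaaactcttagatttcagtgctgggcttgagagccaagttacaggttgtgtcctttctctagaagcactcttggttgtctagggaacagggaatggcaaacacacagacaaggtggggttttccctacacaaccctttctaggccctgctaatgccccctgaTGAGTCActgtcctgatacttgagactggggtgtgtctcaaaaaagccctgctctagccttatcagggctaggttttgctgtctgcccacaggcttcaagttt
Upk3bl upstream, chr5:136051608-136051907: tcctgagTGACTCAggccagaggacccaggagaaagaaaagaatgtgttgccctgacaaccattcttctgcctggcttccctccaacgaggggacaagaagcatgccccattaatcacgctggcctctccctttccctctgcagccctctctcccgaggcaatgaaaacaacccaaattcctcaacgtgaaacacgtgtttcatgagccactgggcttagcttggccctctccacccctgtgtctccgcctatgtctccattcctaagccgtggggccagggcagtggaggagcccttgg
Tinf2 intergenic, chr14:55696622-55696921: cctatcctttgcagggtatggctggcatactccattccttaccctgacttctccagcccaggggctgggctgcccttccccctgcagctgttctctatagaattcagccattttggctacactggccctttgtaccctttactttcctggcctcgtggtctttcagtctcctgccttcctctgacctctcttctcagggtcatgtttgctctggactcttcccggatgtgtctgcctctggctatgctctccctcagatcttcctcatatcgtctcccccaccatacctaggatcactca
Cox8b upstream, chr7:140902288-140902587: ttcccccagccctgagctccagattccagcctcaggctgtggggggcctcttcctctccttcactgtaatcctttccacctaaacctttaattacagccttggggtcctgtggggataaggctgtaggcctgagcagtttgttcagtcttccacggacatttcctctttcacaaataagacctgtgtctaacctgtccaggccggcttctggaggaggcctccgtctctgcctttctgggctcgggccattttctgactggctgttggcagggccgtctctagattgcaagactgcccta
Irgm1 upstream, chr11:48872186-48872485: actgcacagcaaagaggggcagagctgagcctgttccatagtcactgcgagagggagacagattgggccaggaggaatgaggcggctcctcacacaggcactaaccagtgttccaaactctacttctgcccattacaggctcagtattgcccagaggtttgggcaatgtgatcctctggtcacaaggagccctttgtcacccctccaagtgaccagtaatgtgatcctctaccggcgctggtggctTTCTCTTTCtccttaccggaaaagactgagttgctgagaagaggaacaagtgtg
Irf1 promoter, chr11:53769714-53770013: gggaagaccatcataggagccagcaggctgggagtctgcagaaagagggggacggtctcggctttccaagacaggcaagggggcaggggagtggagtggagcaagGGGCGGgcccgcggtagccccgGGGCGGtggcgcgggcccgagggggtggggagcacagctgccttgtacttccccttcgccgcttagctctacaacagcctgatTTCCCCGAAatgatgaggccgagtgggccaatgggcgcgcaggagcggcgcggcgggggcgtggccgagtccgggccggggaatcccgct

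The Abtb2 window held 28, 66 and 62 cut sites in uninjured replicates 1 to 3 and 557, 217 and 187 in the injured ones, and its single capitalised match is an AP-1 motif. The Upk3bl window, 2585 bp upstream of the start of the gene, also holds 1 AP-1 match and had 55, 243 and 105 cut sites before and 716, 276 and 259 after injury. Scaled to depth, the groups did not overlap in the Abtb2 window (1.82 to 2.06 against 4.76 to 14.0 CPM), while in the Upk3bl window uninjured replicate 2 (7.60 CPM) lay above injured replicate 3 (6.60 CPM). Both windows come from domains that were named for having no overlap. The Tinf2 window, from the third of the largest rises, has no match to any of the 4 motifs and few cut sites, 3, 13 and 11 before and 50, 24 and 35 after injury. In the Cox8b window, 1842 bp upstream of the start, cut sites numbered 247, 430 and 225 before and 69, 55 and 60 after injury, with no match to any of the 4 motifs. The Irgm1 window lies 503 bp upstream of the start and carries 1 interferon-factor match, with 194, 328 and 146 cut sites before and 115, 69 and 62 after. The Irf1 window ends 1 base before the annotated start of that gene and holds 2 GC boxes and 1 STAT match, with 244, 466 and 427 cut sites before and 342, 203 and 330 after, which is 12.9 to 15.9 CPM against 8.41 to 10.1 CPM.

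Depth and library quality bear on every comparison. The files hold 8100227 to 23937953 fragments per library, and the 420 to 1338 barcodes with at least 2000 fragments carried 14515956 to 43818036 cut sites on chromosomes 1 to 19. Uninjured replicate 3 and injured replicate 3 shared 34 such barcodes, and in all 34 between 92.9% and 99.0% of the fragments of the smaller copy were identical in the other library. Other pairs of libraries shared 0 to 4, and some of these were near copies too: 3 of 4 between uninjured replicate 1 and injured replicate 2, 2 of 3 between uninjured replicate 2 and injured replicate 2, 1 of 4 between uninjured replicates 1 and 2, and 1 of 1 between injured replicates 1 and 2 had over 50% of fragments identical. No barcode was assigned to a cell type and doublets were not removed.

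Markers were read over gene bodies and 2 kb upstream, on autosomes only. None of the 46 was at 0 in any library. Summed over 6 genes, HBC markers reached 389 to 501 CPM in uninjured and 311 to 451 CPM in injured libraries, and 5 of the 6 genes (Krt5, Krt14, Krt15, Icam1 and Trp63) were the nearest gene to a domain. The 6 did not move alike. Per kb, Krt5 stood at 9.83, 8.23 and 5.69 CPM in uninjured and 11.7, 10.6 and 5.27 CPM in injured libraries. Icam1 stood at 8.88, 6.37 and 6.04 against 3.56, 3.55 and 3.31 CPM, Krt15 at 2.755, 1.90 and 2.26 against 1.63, 1.69 and 1.49 CPM, and Krt14 at 13.5, 11.7 and 8.09 against 11.8, 10.5 and 7.69 CPM. Icam1 and Krt15 were lower in every injured library than in any uninjured one. Omp, the marker of mature sensory neurons, stood at 3.03, 1.80 and 3.33 against 1.197, 1.19 and 5.23 CPM. Signal of immune marker genes was higher in every injured library (76.8 to 109 CPM over 6 genes) than in any uninjured one (69.7 to 73.6 CPM). Gene by gene, Cd68 (5.26, 5.28 and 5.43 against 10.2, 7.47 and 5.50 CPM per kb), Csf1r and C1qa did not overlap between groups, while Ptprc, Spi1 and Cd3e did. The part of immune cells in the results was not tested. In bulk sums such as these, a change in the mix of cells and a change per cell cannot be told apart.

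Domains were far more often promoters than other open regions were. Of the 2963, 1905 (64.3%, 95% Wilson interval 62.6 to 66.0%) held an annotated start of a protein-coding transcript, against 9.47% of all open regions. A further 743 (25.1%) lay in a gene body without a start and 315 (10.6%) between genes. In all, 2060 protein-coding genes, 9.95% of those annotated on these chromosomes, had a start inside a domain, and 29 domains held starts of 3 or more genes (at most 5).

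These features changed with width. The share of regions with a start was 1.06% at 0.5 kb, 2.98% at 1 kb, 16.7% at 1.5 to 2 kb, 44.5% at 2.5 to 4.5 kb and 64.3% in the domains. A wider region has more room for a start, and its highest tile is picked from more tiles; the part of either was not tested. In the highest tile the GC box share went from 8.52% at 0.5 kb to 44.9% at 2.5 to 4.5 kb and 58.7% in domains. The AP-1 share went from 27.9% at 0.5 kb to 21.4% at 2.5 to 4.5 kb, and was 21.4% in domains as well. The median ratio of observed to expected CpG over the whole region was 0.183 in the narrowest class, 0.306 at 2.5 to 4.5 kb and 0.335 in the domains. The plot of features by width shows these classes beside the calls described below.

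**Figure D1:**
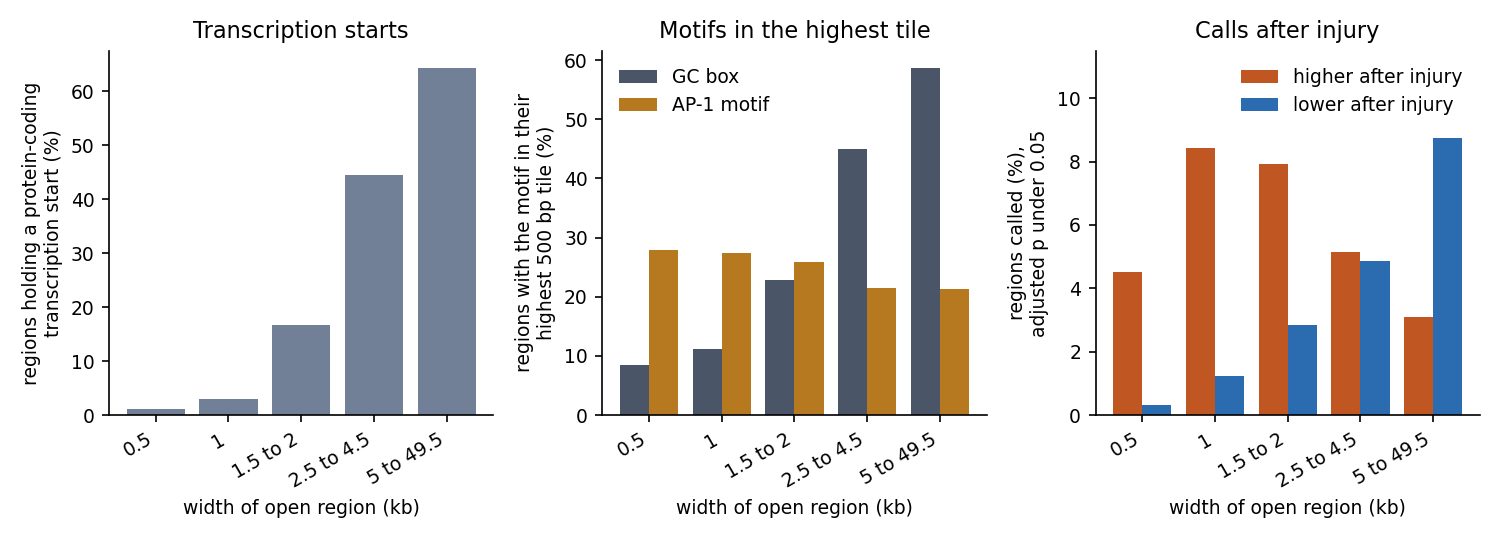
Open regions by width in kb: left, percent holding a protein-coding transcription start; middle, percent with a GC box or an AP-1 motif in the highest 500 bp tile; right, percent called higher or lower after injury (edgeR adjusted p under 0.05). Starts, GC boxes and calls of lower signal are most frequent in the widest class, at 64.3%, 58.7% and 8.74%.

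Where a domain held the start of 1 gene, it reached mainly into the gene. In 1328 of 1695 such domains (78.3%) the downstream side was the longer, with a median of 4160 bp downstream and 2010 bp upstream of the start. In the 276 of these that were 10 kb or wider, the upstream median was 2401 bp and the downstream one 10270 bp, and 254 were longer downstream. Where a gene had several annotated starts in its domain, the start whose tile had the most signal was used. The highest tile lay within 500 bp of that start in 1223 domains (72.2%), a closeness that the choice of start favours. Measured from that start, most of these domains had their peak near it and their longer side in the gene. Fragments shorter than the DNA around a nucleosome were a smaller share in domains than in narrower open regions of all 6 libraries. They made up 46.0%, 50.7% and 48.7% in uninjured and 45.1%, 47.2% and 50.1% in injured libraries, against 49.7%, 53.1% and 51.2% and 48.3%, 49.7% and 53.0% in regions under 5 kb.

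The widest domain, 49500 bp on chromosome 15 at 66922001 to 66971500, covered the start of Ndrg1, a gene induced by stress and low oxygen, and overlapped Ccn4. It was followed by domains at Wdr1 (an actin-disassembly factor, 48.5 kb), Cdh1 (E-cadherin, 47.5 kb), Nr4a3 (an orphan nuclear receptor, 47.5 kb), Rab11fip1 (an effector of endosome recycling, 47.5 kb), the stretch beside Frmd8 that holds the start of the long noncoding RNA Neat1 (47.0 kb), Lmna (lamin A/C, 41.5 kb), Timp3 (a metalloproteinase inhibitor, 41.5 kb), 2010111I01Rik with Fancc (41.5 kb) and Hjurp with Mroh2a (41.0 kb). Highest per kb was a domain between genes on chromosome 17 at 39842501 to 39849000, with 469.8 CPM per kb, where the annotation holds the noncoding genes Gm26917, Gm42418 and AY036118. In 70.5% of the barcodes with a fragment there, some base was covered by 3 or more fragments, more than 2 chromosome copies can give, against a median of 1.34% over domains. That domain and 1 other over 10% were kept in the counts, and without them the counts after injury were 92 higher and 258 lower. The next highest were promoters: Sin3a (a corepressor scaffold) at 22.3, Sp4 at 20.8, Gsk3b at 20.5, Zfp36 with Plekhg2 at 19.3, Socs3 at 18.6 and Jun at 18.4 CPM per kb.

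The comparison after injury asked how the domains move within a day. As a class, domains held a smaller share of the cut sites after injury. They took 15.4%, 14.5% and 14.4% of the cut sites of uninjured libraries and 12.6%, 11.9% and 12.5% of injured ones (14.8 ± 0.583% against 12.3 ± 0.343%, SD, n = 3). An exact permutation test, two-sided, gave p = 0.1, the lowest value possible with 3 libraries a group. Every injured library lay below every uninjured one. Within open regions alone, whose share of all cut sites was itself lower after injury (64.6 to 71.6% against 73.3 to 76.8%), domains held 20.1%, 19.7% and 19.2% before and 17.9%, 18.4% and 17.4% after (exact permutation p = 0.1). Mean open width per domain depended on the setting. As measured it did not separate the groups, at 6.95, 7.21 and 7.13 kb before and 6.93, 7.12 and 7.11 kb after (exact permutation p = 0.5). With all libraries thinned to the depth of the smallest, a check added after seeing the data, it was 6.99 ± 0.0381 kb before and 6.86 ± 0.0921 kb after (SD, n = 3, exact permutation p = 0.1). The groups also separated with fragments shorter than nucleosomal DNA alone (6.39 ± 0.0916 against 6.15 ± 0.112 kb, n = 3, exact permutation p = 0.1). So they did for the domains of a threshold of 10 times the median tile (6.79 ± 0.0598 against 6.58 ± 0.0541 kb, n = 3, exact permutation p = 0.1).

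Single domains were tested with edgeR (quasi-likelihood, Benjamini-Hochberg over all 153082 open regions tested). At an adjusted p under 0.05, 92 domains rose (3.10%) and 259 fell (8.74%), while of all regions tested 6.27% rose and 1.65% fell. More domains fell than rose, while more regions rose than fell. With scaling by 10 kb bins across the genome both leaned lower, at 32 higher and 1439 lower domains and 7462 higher and 11520 lower regions. The median log2 change was -0.15 over domains and 0.01 over all regions. Groups did not overlap upward in 180 domains (6.07%, against 15.8% of all regions) and downward in 872 (29.4%, against 11.6%). By width, lower calls were 0.314% of regions of 0.5 kb, 1.22% at 1 kb, 2.84% at 1.5 to 2 kb, 4.85% at 2.5 to 4.5 kb and 8.74% in domains. Domains also hold more cut sites (median 35.1 CPM against 1.06 CPM over all regions), and the part of that depth in the share of calls was not tested.

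These counts rest on particular libraries and on the scaling. Without uninjured replicate 1, edgeR called 0 domains in either direction (edgeR unadjusted p under 0.05 in 172 higher and 547 lower). Without injured replicate 2 it also called 0 (unadjusted, 161 and 835). In both fits edgeR called 0 of all open regions as well, and DESeq2 was not run on those 5 libraries. Without injured replicate 3 edgeR called 337 domains higher and 353 lower, and of all 157427 regions tested 17272 and 4832. Without uninjured replicate 2 the domain counts were 12 and 38 (all regions 2362 and 163), and without injured replicate 1 17 and 75 (2816 and 562). The 92 and 259 called domains all kept their direction when each library was left out in turn. Groups did not overlap in 91 and 258 of them, so that outcome was nearly fixed in advance and is no check of the calls. With the shared barcodes left out the counts were 92 and 262, and every call was kept. Scaling to total cut sites gave 100 higher and 794 lower domains (all regions 9590 and 5591, median -0.09). Scaling by 10 kb bins across the genome gave 32 and 1439 (all regions 7462 and 11520, median -0.33). DESeq2 called 110 and 184 domains, and 14195 and 4542 of all regions.

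By position, and beside 3.10% higher and 8.74% lower over all domains, calls were as follows. Of the 1905 domains with a start, 29 rose and 180 fell. Of the 743 in gene bodies, 49 rose and 42 fell, and of the 315 between genes, 14 rose and 37 fell. The difference between positions was not tested. The AP-1 motif stood in the highest tile of 46 of the 92 domains that rose (50.0%), 31 of the 259 that fell (11.97%) and 21.3% of those not called. For the GC box the shares were 32.6%, 66.8% and 58.8%. The TEAD motif GGAATG was in the highest tile of 38.0% of the domains that rose and 20.8% of those that fell, against 22.5% of all domains and 27.2% of all open regions. The RUNX motif TGTGGT was in 31.5% and 19.7% (24.0% of all domains), and the ETS motif CCGGAAG in 2.17% and 12.7% (8.91%). The STAT motif was in 11.96% and 12.4%. These shares describe the called sets, and no test was made of them.

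**Figure D2:**
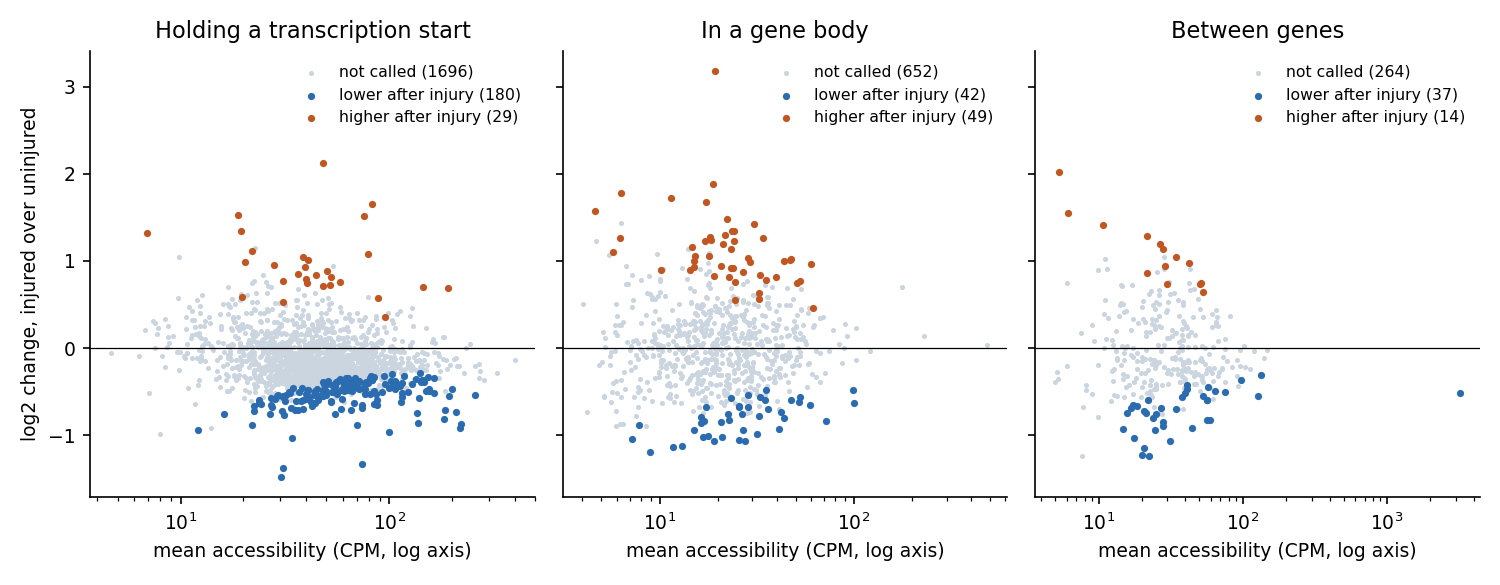
Each point is a domain, by mean accessibility (mean of both groups in CPM, log axis) and log2 change after injury, for domains with a protein-coding start, in gene bodies and between genes. Orange points were called higher and blue points lower by edgeR. Most of the 180 falls among promoters were under 2-fold, and the single point at the far right is the domain between genes on chromosome 17.

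The median log2 change of the rises was 0.99 and 43 of 92 exceeded 2-fold, while the falls had a median of -0.55 and 19 of 259 exceeded 2-fold. Membership was set by the mean of all 6 libraries, so a stretch could reach 5 kb through 1 group alone. In the Abtb2 domain, described below, most tiles were under the threshold of 0.302 CPM in each uninjured library. The size, rank and p-values of the changes thus follow in part from the rule. The order of these sizes turned with the scaling. The 10 largest rises and the 10 largest falls had medians of 1.75 and -1.21 here, and of 1.37 and -1.58 with the 10 kb bins. Without injured replicate 3 the numbers of rises and falls among domains were near each other (337 and 353), while of all regions 17272 rose and 4832 fell. The largest rise was in an intron of Abtb2, which encodes a BTB-domain protein (chromosome 2 at 103654001 to 103659500). It stood at 3.71, 3.28 and 4.52 CPM in uninjured and 49.0, 42.0 and 13.7 CPM in injured libraries (log2 change 3.18 ± 0.413 SE, edgeR adjusted p 0.00705). Injured replicate 3 was the lowest of its group there. The groups did not overlap, which the naming rule required of all rises and falls ranked here. Within the domain 7 of 11 tiles rose.

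The domain at the start of Upk3bl, a uroplakin-like gene, was second (chromosome 5 at 136048501 to 136058000). Its values were 13.7, 22.3 and 17.7 CPM before and 107, 88.4 and 39.4 CPM after injury (log2 change 2.12 ± 0.322, edgeR adjusted p 0.00788), and 16 of 19 tiles rose. Next came a domain between genes, 12681 bp from the start of Tinf2, with 1.69, 2.10 and 2.46 CPM before and 8.24, 7.38 and 9.83 CPM after (2.01 ± 0.284, edgeR adjusted p 0.00715). The sums before injury are too low for every tile to reach the threshold of 0.302 CPM, so this domain reached its width through the injured libraries. Here injured replicate 3 was the highest of all. A domain inside Nsmce2, whose nearest start is that of the pseudokinase gene Trib1, went from 8.34, 10.2 and 5.55 to 38.2, 33.9 and 16.8 CPM (1.89 ± 0.316).

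Plaur, the receptor of urokinase, had a domain of 17.5 kb at its start that rose from 30.8, 25.7 and 62.6 to 164, 125 and 87.8 CPM (log2 change 1.66 ± 0.320, edgeR adjusted p 0.0156). Uninjured replicate 3 was the highest of its group and injured replicate 3 the lowest. Domains inside Tnks1bp1 (1.72) and Nectin4 (a junctional adhesion molecule; 1.68), the one overlapping Tubb6 (a beta-tubulin; 1.57) and the one nearest Snx5 (a sorting nexin; 1.55) were also among the 10 largest rises. In each of the rises described here but the one near Tinf2, injured replicate 3 was the lowest injured library.

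**Figure D3:**
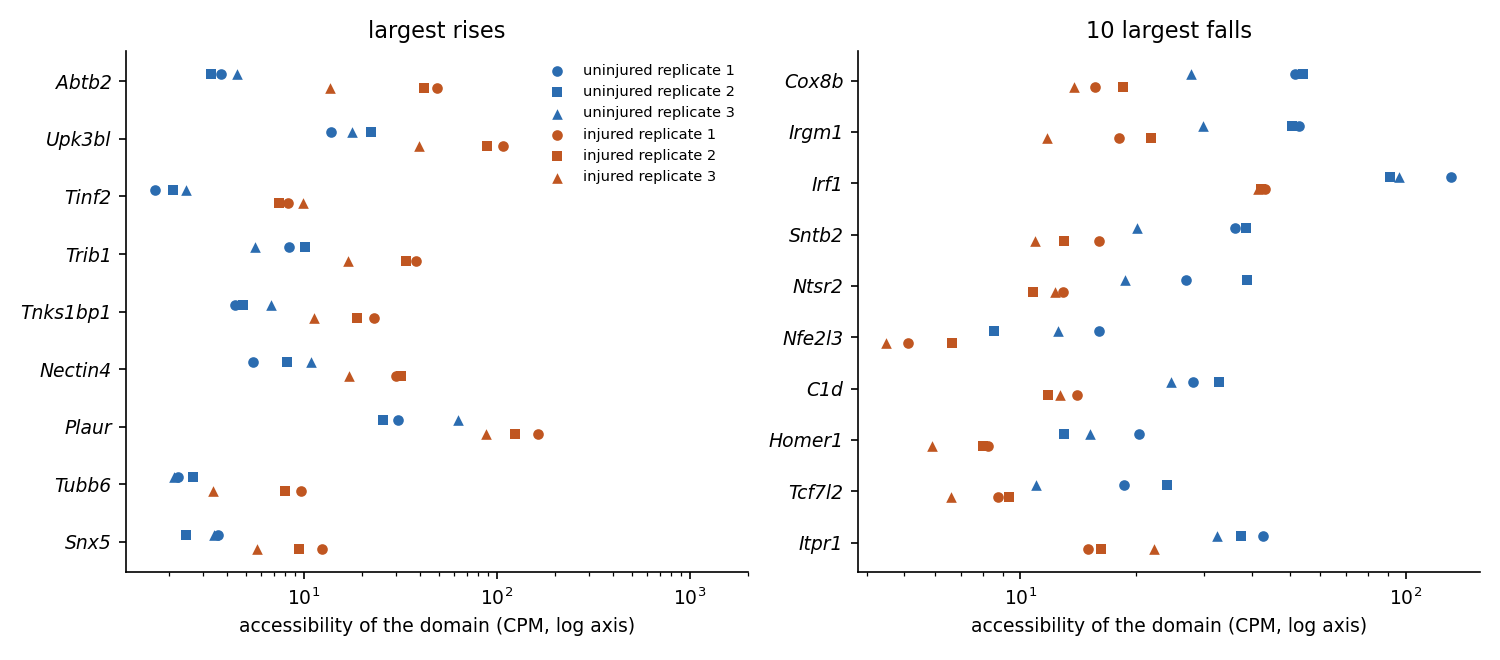
Accessibility of domains among the 10 largest rises (1 is not shown) and of the 10 largest falls, in CPM on a log axis, 1 marker per library (blue uninjured, orange injured; the marker shape gives the replicate). Groups do not overlap, which the naming rule required, and injured replicate 3 (orange triangles) is the lowest injured library in all rises shown but that of Tinf2.

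Among the falls, the largest was at Cox8b, a cytochrome c oxidase subunit, with Psmd13 overlapping (chromosome 7 at 140897501 to 140904000). Its values were 51.5, 54.1 and 27.8 CPM before and 15.6, 18.4 and 13.8 CPM after injury (log2 change -1.48 ± 0.236, edgeR adjusted p 0.00900). Irgm1, an interferon-induced GTPase, followed with 53.0, 50.9 and 29.7 CPM before and 18.04, 21.9 and 11.7 CPM after (-1.37 ± 0.261, edgeR adjusted p 0.0148). In both, uninjured replicate 3 was the lowest of its group, and the naming rule required that the groups not overlap.

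The domain of Irf1, the interferon-inducible transcription factor, spans 18.5 kb on chromosome 11 (53768501 to 53787000) and also holds a start of Gm17334. It fell from 131.6, 91.1 and 95.9 CPM to 43.1, 42.0 and 41.3 CPM (log2 change -1.33 ± 0.138, edgeR adjusted p 0.00692), with 21 of 37 tiles called lower. The SD of the injured libraries was 0.897 CPM. Its highest tile went from 17.3 to 19.9 CPM to between 9.17 and 9.77 CPM (log2 -0.97), and the rest of the domain from 73.1 to 112 CPM to between 32.1 and 33.9 CPM (-1.42). Domains nearest Sntb2 (-1.24), Ntsr2 (-1.23) and C1d (-1.15), all between genes, and those inside Nfe2l3 (-1.19), Homer1 (-1.13), Vti1a with Tcf7l2 the nearest start (-1.12) and Itpr1, a calcium channel of the endoplasmic reticulum (-1.07), made up the remainder of the 10 largest falls.

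The way a domain moved along its length differed. Over all domains the highest tile changed by a median log2 of -0.27 and the remainder by -0.11. The highest tile, picked from the mean of the same 6 libraries, moved further than the remainder in 2009 of the 2963. In the 92 domains that rose the medians were 1.08 and 0.93, and the highest tile moved further in 52. In the 259 that fell the medians were -0.54 and -0.53, and it moved further in 151. Ndrg1 and Rab11fip1, both among the 10 widest, are rises in which the highest tile moved less. Hjurp with Mroh2a, also among the 10 widest and called higher, went the other way (log2 0.84 for the highest tile and 0.27 for the remainder). At Ndrg1 the highest tile had 22.7, 26.4 and 23.2 CPM before and 24.1, 25.1 and 18.3 CPM after injury, while the rest of the domain went from 80.7, 84.2 and 93.3 to 188, 170 and 113 CPM. The whole domain rose by 0.70 ± 0.153 (edgeR adjusted p 0.0240). At Rab11fip1 the highest tile likewise overlapped between groups (9.90, 15.2 and 17.8 against 16.8, 17.5 and 11.4 CPM) and the rest rose from 114, 129 and 152 to 255, 241 and 164 CPM, for 0.69 ± 0.162 overall (edgeR adjusted p 0.0319), with 15 of 95 tiles called higher. Only the single highest 500 bp tile was set apart here. At Rab11fip1 the tile next to it, on the same peak, went from 4.49, 5.16 and 8.37 to 20.7, 17.1 and 10.6 CPM. The Ndrg1 call was lost when any library but injured replicate 3 was left out, the Rab11fip1 call when any but the third replicates was, and both with the 10 kb scaling (log2 0.31 and 0.29).

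The other widest domains moved less or downward. The domain of 2010111I01Rik with Fancc was called lower, with log2 changes of 0.49 in the highest tile and -0.53 in the remainder. Those of Wdr1 (-0.53 and 0.39) and Lmna (-0.19 and -0.29) were not called. Cdh1 (240, 247 and 235 against 308, 256 and 180 CPM) and the Neat1 stretch beside Frmd8 (481, 394 and 561 against 567, 497 and 411 CPM) overlapped between groups (log2 0.05 and 0.04). At Hjurp and Mroh2a the rise was 0.36 ± 0.0845 (edgeR adjusted p 0.0311), and the value was -0.002863 with the 10 kb scaling. Timp3, which lies inside Syn3, fell by 0.63 on the log2 scale (118, 116 and 131 against 77.2, 78.2 and 80.6 CPM, edgeR adjusted p 0.00705) with 1 of 83 tiles called, and Nr4a3 fell by 0.55 (251, 233 and 207 against 173, 168 and 131 CPM, edgeR adjusted p 0.0195).

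**Figure D4:**
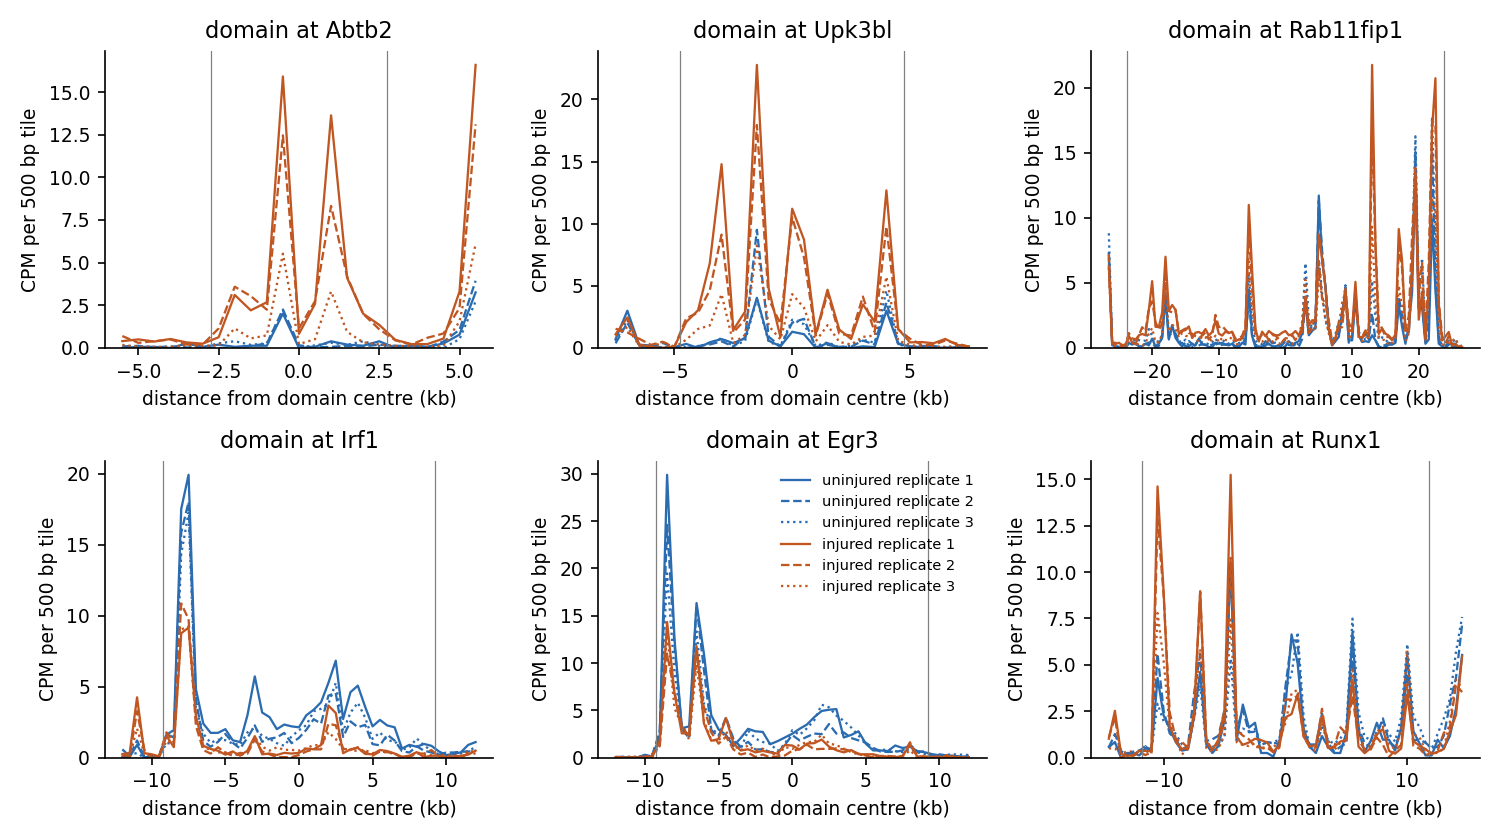
Accessibility per 500 bp tile (CPM) against distance from the domain centre in kb, 1 line per library (blue uninjured, orange injured; solid, dashed and dotted for replicates 1 to 3), with grey lines at the domain edges. Abtb2 and Upk3bl gain several peaks, Rab11fip1 gains mainly outside its single highest tile, Irf1 and Egr3 lose signal at the promoter peak and along the body, and the Runx1 intron domain gains at some peaks and loses at others.

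Tiles were also tested singly, over all 371920 open tiles tested. In domains, 1064 of 44834 tiles rose (2.37%, against 5.23% of all open tiles) and 1242 fell (2.77%, against 1.62%). Which direction had more tiles in domains turned with the setting. Rises outnumbered falls with DESeq2 (1572 and 1224), without the filter on low counts (1281 and 922), and without uninjured replicate 1 (366 and 124), uninjured replicate 2 (496 and 197), injured replicate 2 (275 and 113) or injured replicate 3 (2253 and 1658). Over all open tiles rises outnumbered falls by a larger factor in each of these fits. In the same order, the counts were 25181 and 7518, 21778 and 4827, 8774 and 718, 9838 and 800, 6503 and 592, and 32229 and 10387. Called tiles lay in both called and uncalled domains: 598 domains held a tile that rose, 756 a tile that fell and 108 both, and 926 of the 2612 domains without a call of their own held at least 1 called tile. A domain inside Runx1, a transcription factor of epithelial and blood stem cells, held 2 tiles that rose and 3 that fell, while its sum was 84.3, 94.0 and 88.2 CPM before and 96.4, 91.1 and 78.7 CPM after (log2 change -0.00174, edgeR adjusted p 0.996). Abcg1 (2 and 3 tiles), Sdc4, Atox1 and Sbno2 (2 and 2 each) were alike in this, as were Cdh1 and Arntl, which tie with them and were added after their values were seen. A sum over such a domain hides opposite movements.

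Lists of genes were chosen with earlier results of these data known, so their counts describe and do not test. The list of 40 primary response genes was drawn up after the domain values had been seen, so that its 39 genes with a start inside a domain follow from the choice. Of the 57 domains nearest to them, 3 rose and 17 fell (against 3.10% and 8.74% of all domains), with a median log2 change of -0.32 against -0.15 over all domains, and this too was known when the genes were chosen. The median was between -0.67 and -0.25 under the alternatives of the fit. Irf1, described above, is one of the list. Start domains of the zinc-finger genes Egr1, Egr2 and Egr3 fell: the Egr3 domain from 150, 121 and 123 to 72.4, 62.6 and 67.4 CPM (log2 change -0.96 ± 0.107, edgeR adjusted p 0.00692, 16 of 37 tiles), the Egr1 domain from 333, 238 and 285 to 148, 142 and 163 CPM (-0.92 ± 0.115) and the Egr2 domain from 99.3, 84.6 and 87.3 to 56.7, 61.8 and 53.9 CPM (-0.65 ± 0.102). No injured library reached the lowest uninjured one in any of the 3. The nuclear receptor gene Nr4a1 fell from 248, 185 and 267 to 145, 107 and 145 CPM (-0.82 ± 0.151, edgeR adjusted p 0.0135), the antiproliferative gene Btg2 from 198, 140 and 196 to 102, 83.0 and 110 CPM (-0.86 ± 0.145) and Socs3, the feedback inhibitor of cytokine receptors, from 269, 229 and 189 to 150, 131 and 138 CPM (-0.71 ± 0.118, edgeR adjusted p 0.0100). The 3 rises were 2 domains between genes nearest Ier5 (0.98 and 0.64) and 1 between genes nearest Bhlhe40 (0.74), none of them at a start.

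Genes of AP-1 subunits and their relatives overlap that list, which holds 9 of the 10. Of the 10 genes, 9 had a start in a domain, and of 13 domains 0 rose and 2 fell (against 3.10% and 8.74% of all domains). With the 10 kb scaling 11 fell, while 1439 of all 2963 domains did. Without uninjured replicate 1 or injured replicate 2, 0 fell, and so did 0 of all domains. The log2 change was below 0 in all 13 (median -0.35), as it was in 68.0% of all domains. Junb fell from 342, 288 and 280 to 219, 213 and 198 CPM (-0.53 ± 0.0862, edgeR adjusted p 0.00931, 9 of 30 tiles) and Jund by 0.33 (edgeR adjusted p 0.0494). Fos had 264, 202 and 225 against 197, 149 and 159 CPM without passing (log2 change -0.45, edgeR adjusted p 0.0507), and Jun 258, 201 and 224 against 222, 187 and 183 CPM (-0.21, edgeR adjusted p 0.310).

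Of the 15 genes marking resting HBCs, 10 had a start in a domain. Among their 19 domains 1 fell and 0 rose, no more than the shares over all domains (8.74% and 3.10%), and the median log2 change of -0.13 was near that of all domains (-0.15). With the 10 kb scaling 9 fell and 0 rose (median -0.52), while 1439 of all 2963 domains fell. Without injured replicate 3, 3 rose and 1 fell (median 0.015), while of all 2963 domains 337 rose and 353 fell (median -0.084). The one that fell holds the starts of Icam1, the adhesion molecule used to sort HBCs, with Icam4 and Icam5, and went from 200, 155 and 156 to 101, 110 and 93.8 CPM (-0.75 ± 0.113, edgeR adjusted p 0.00788, 7 of 39 tiles). Krt5, the keratin whose promoter drives the Cre, had 90.2, 81.0 and 55.4 CPM before and 125, 113 and 54.5 CPM after (log2 change 0.37, edgeR adjusted p 0.519) with 6 tiles called higher. Replicate 3 was the lowest in both groups there. At Krt14 the groups overlapped (110, 94.2 and 76.5 against 107, 92.1 and 70.2 CPM), and at the Trp63 start domain, the transcription factor that holds HBCs at rest, they did too (11.3, 9.10 and 12.6 against 11.1, 11.7 and 8.89 CPM).

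Genes of activated HBCs and wound epithelium had a start in a domain in 8 of 20 cases. Of 11 domains 2 rose and 0 fell (against 3.10% and 8.74% of all domains), with a median of 0.32, which turned to -0.05 with scaling by 10 kb bins. Besides Plaur, the domain of Cldn4, a tight-junction claudin, rose from 45.5, 46.2 and 62.0 to 133, 119 and 72.6 CPM (1.07 ± 0.208, edgeR adjusted p 0.0156, 6 of 22 tiles). Emp1, an epithelial membrane protein, had 75.8, 79.3 and 170 against 186, 142 and 118 CPM (0.45, edgeR adjusted p 0.423), where uninjured replicate 3 lay above 2 injured libraries. At Krt17 the groups overlapped (190, 153 and 129 against 220, 152 and 123 CPM).

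**Figure D5:**
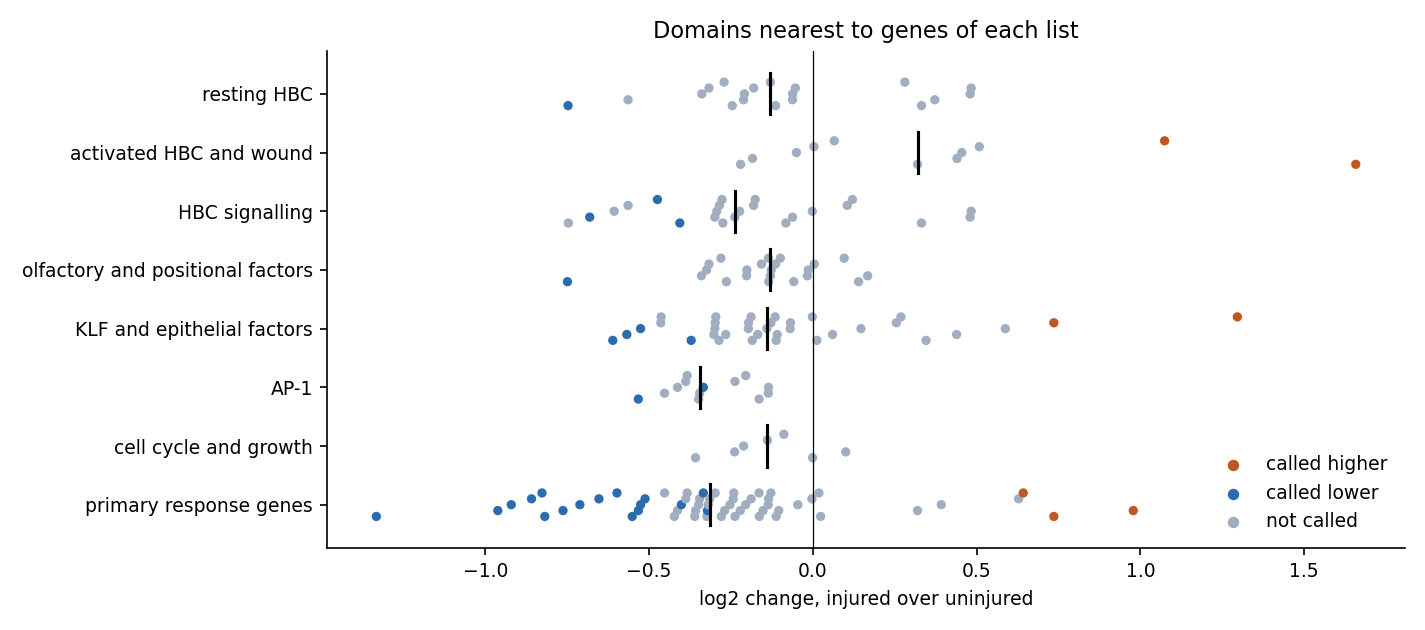
Log2 change after injury of each domain nearest to a gene of 8 lists; orange points were called higher, blue points lower and grey points not called, and black bars are medians. The AP-1 and primary response lists have the lowest medians (-0.35 and -0.32), and the activated and wound list has the only median above 0 (0.32).

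Signalling genes of HBCs had 23 domains, of which 0 rose and 3 fell, counts near the shares over all domains (3.10% and 8.74%). These were Hes1, the Notch target, from 186, 184 and 170 to 139, 134 and 115 CPM (-0.47 ± 0.0892, edgeR adjusted p 0.0142), Id1, a BMP target, from 117, 118 and 132 to 96.1, 95.9 and 84.9 CPM (-0.41 ± 0.0906, edgeR adjusted p 0.0255), and 1 of the 4 domains near Smad7 (-0.68, edgeR adjusted p 0.0481). The Notch1 start domain had 74.2, 72.1 and 52.6 against 45.5, 53.2 and 35.9 CPM and did not pass (-0.56, edgeR adjusted p 0.0735). Their median was -0.24.

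Epithelial transcription factor genes were nearly all in domains (19 of 20 with a start in one). Of 35 domains 2 rose and 4 fell (against 3.10% and 8.74% of all domains), with a median of -0.14, close to that of all domains. A domain inside Ets1 rose (1.30 ± 0.316, edgeR adjusted p 0.0354), as did the one nearest Bhlhe40. The Runx1 start domain of 35.0 kb fell from 172, 164 and 165 to 118, 117 and 102 CPM (-0.57 ± 0.0834, edgeR adjusted p 0.00731), and start domains of Cebpd (-0.61), Zfp36l1 (-0.53) and Klf3 (-0.37) fell too. Klf4, Klf5 and Klf6 did not pass. Of 22 domains near olfactory and positional factors, 1 between genes near Emx2 fell (-0.75, edgeR adjusted p 0.0303) and 0 rose, and of 7 near cell-cycle and growth genes 0 passed.

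Cell to cell, domains were sampled sparsely. With each barcode thinned to 2000 fragments, a median of 6.79% of barcodes had a fragment in a given domain, and the medians per library were 7.49%, 7.20% and 7.00% before and 6.58%, 6.43% and 5.76% after injury. The variance of counts among barcodes was close to the mean (median ratio 1.05), and 42 domains exceeded 1.2. After the domain between genes on chromosome 17 (11.7), the highest ratios were at Gpsm3 with Pbx2 (1.48), Hjurp with Mroh2a (1.45), Thbs1, a secreted matrix glycoprotein (1.43), and Atf3 with Fam71a (1.43). The lowest were at Ptk7 and Heg1 (0.955 each), Sp8 (0.960), Dnajb4 and Saraf (0.961 each). Thbs1 had 100, 101 and 92.4 CPM before and 154, 131 and 59.3 CPM after injury, so that injured replicate 3 lay below and the other injured libraries above every uninjured one.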

How the data were processed

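The files used were the fragment files of 6 libraries, in which each line is a deposited count of read pairs behind 1 fragment and its barcode, per the file headers; the deposited peak matrices were not used. Cell Ranger 2.0.0 and mm10 (GRCm38) are named in the submitters' processing notes, and the role of each tool is not given there. Here both ends of a fragment were cut sites, and cut sites of barcodes with at least 2000 fragments were summed per open region and library. CPM were computed on effective cut sites of chromosomes 1 to 19 (total times TMM factor). Groups were compared with edgeR 4.0.16 (quasi-likelihood, robust, filterByExpr, TMM) in R 4.3.3 over all open regions, with Benjamini-Hochberg adjustment and a threshold of 0.05; DESeq2 1.42.0 was an alternative. The fit was tested on simulated data. Single values per library were compared by permutation, exact and two-sided. Starts, genes and exons are from GENCODE M21, and sequences from the GRCm38 genome. The p-values measure the spread between libraries.

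Named are the 10 widest domains, the 10 highest per kb, the 10 largest rises and falls among those past the threshold without overlap, those nearest genes of the lists, up to 5 with most tiles called both ways, and the 5 with the largest and smallest variance over mean among barcodes. Of the largest rises, 1 is not reported here. The members and lists were chosen with earlier results of these data known. Same-numbered libraries were not taken as pairs, since their deviations did not correlate above 0.1 in every pair. The intervals of shares cover counting error only.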

Additional observations from a re-analysis of the deposited data

How the results depend on the processing

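Counts of domains called were 92 higher and 259 lower. Leaving out 1 library at a time gave 0 to 337 higher and 0 to 353 lower domains, and 259 to 2253 higher and 113 to 1658 lower tiles. Over all regions the same fits called 0 to 17272 higher and 0 to 4832 lower, and over all open tiles 6503 to 32229 and 592 to 10387. With injured replicate 2 left out and barcodes kept only where 20% of cut sites lay in open regions, edgeR called 0 domains higher and 0 lower (157 and 765 at an unadjusted p under 0.05). TMM factors from 10 kb bins gave 32 higher and 1439 lower domains, and 522 and 4487 tiles in domains. Over all tested, they gave 7462 and 11520 regions, and 13568 and 21411 tiles. Total cut sites gave 794 lower domains and 2158 lower tiles in domains, beside 5591 lower regions and 10020 lower tiles over all tested. A threshold of 10 times the median tile left 873 domains, 71.94% with a start, of which 19 rose and 143 fell. Of all 103512 regions tested there, 9958 rose and 3256 fell. Bridging gaps of 1 tile gave 4897 domains, 57.65% with a start, of which 225 rose and 312 fell, while of all 136829 regions tested 8696 rose and 2164 fell. Fragments shorter than nucleosomal DNA gave 689 higher tiles of 28284 tested in domains, and 11848 of 209908 over all open tiles. With the replicate block 156 domains rose and 558 fell, and of all regions 10520 rose and 4112 fell. In domains 2136 tiles fell, and over all open tiles 9833. The labels give same-numbered libraries the same age but do not say that a number marks a shared litter, batch or day. Such libraries correlated at 0.014, 0.246 and 0.249. The difference in mean open width (-0.041 kb) was -0.1125 to 0.02053 with 1 library left out, with a change of sign to 0.01344 (uninjured replicate 2 left out) and 0.02053 (injured replicate 1 left out), and was 0.008212 with the 20% filter and 0.01153 with 5000 or more fragments per barcode. The log2 change at Hjurp and Mroh2a changed sign with the 10 kb scaling (-0.002863); the cause was not tested in any of these. Leaving out the smaller copies of shared barcodes, thinning to 1 depth and the 20% filter joined with leaving out injured replicate 2 were chosen after seeing the data.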
